A study of Mus musculus with 16 samples.

Results

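The lysosomal cathepsins and the cystatins that hold them in check were followed in the mouse hippocampus after the transcription factor CREB was made constantly active or blocked. The set had 10 genes: the inhibitors Cst7 and Cst3 and the proteases Ctsb, Ctsc, Ctsd, Ctsh, Ctsl, Ctss, Ctsz and Lgmn. These genes were chosen with earlier results of these data known, and their probe sets were found by symbol in the array's annotation. They were 10 of 18193 genes with a symbol of their own on the array. Their 20 probe sets (groups of short probes that read 1 transcript) were taken as annotated, and 18 of them, covering all 10 genes, passed the filter on low values. The 2 that did not were further Ctsc probe sets, at intensities between 22.1 and 96.7 on every array.

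Cathepsins are proteases of the lysosome, the acid compartment in which cells break down proteins, and most of them use a cysteine for catalysis. Cystatins are small proteins that block cysteine cathepsins by sitting in their active site. Cst7 encodes cystatin F, an inhibitor of immune cells that is sent to the lysosome itself and acts there on cathepsins such as C, H and L, whereas Cst3 encodes cystatin C, a secreted inhibitor made in large amounts by astrocytes and microglia.

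The data were 16 Affymetrix arrays of hippocampal RNA, each hybridised with 1 pool from 3 to 4 mice, with the strain given as C57BL/6J in the labels. VP16-CREB is CREB with a strong viral activation domain (VP16) attached, and A-CREB is a dominant negative partner that keeps CREB off DNA. Both are tetO transgenes, written tetO-VP16-CREB C57BL/6J and TetO-A-CREB-95 C57BL6 F1/J as genotypes, and the design text calls the induced mice bitransgenic. Which promoter drove the second transgene is not given in the sources used here. VP16-CREB mice and their wild-type littermates were sampled 3 weeks after doxycycline (dox) was withdrawn, at 6 weeks of age (3 pools each), and 1 week after withdrawal, at 3 weeks of age (2 pools each). A-CREB mice and their littermates were 6 weeks old and were raised without dox (3 pools each). Nothing in the labels ties pools of different groups to each other, and p-values measure the spread between pools. The 6 arrays of the 3 week cohort had median intensities of 118.9 to 129.3, against 75.0 to 93.2 on the other 10, so levels are compared within a cohort. All 8 markers of dentate granule neurons and all 10 of neurons in general passed the filter. Xist, the transcript of the inactive X chromosome, was low in A-CREB replicate 1 (63.4) and in replicate 1 of its littermates (34.5), and results of that cohort are given with and without both pools where they differ.

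The promoters of 4 members are printed because these are the genes that the comparisons below turn on: the inhibitor that changed most, the inhibitor that did not pass the test, and a cysteine and an aspartic protease that rose. Each window holds 250 bases before and 50 bases after the start of the RefSeq gene (GRCm38.p6), 5′ to 3′ on the strand of the gene. Cst7 is at chr2:150570165-150570464 (plus strand), Cst3 at chr2:148875463-148875762 (minus strand), Ctss at chr3:95526536-95526835 (plus strand) and Ctsd at chr7:142387778-142388077 (minus strand). Capitals mark matches to 1 of 5 motifs that were searched on both strands: the CREB site TGACGTCA, its core TGACG, the E-box CACGTG read by TFEB and related factors, the PU.1 core GAGGAA and the C/EBP core TTGCG. The core TGACG also lies inside the full CREB site, and the other motifs do not contain each other.
Cst7: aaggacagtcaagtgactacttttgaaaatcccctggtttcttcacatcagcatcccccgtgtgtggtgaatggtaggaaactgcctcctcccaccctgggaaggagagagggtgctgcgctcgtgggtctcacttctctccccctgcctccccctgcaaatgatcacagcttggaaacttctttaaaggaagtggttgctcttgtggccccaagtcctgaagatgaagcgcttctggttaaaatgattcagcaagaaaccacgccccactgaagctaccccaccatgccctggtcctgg
Cst3: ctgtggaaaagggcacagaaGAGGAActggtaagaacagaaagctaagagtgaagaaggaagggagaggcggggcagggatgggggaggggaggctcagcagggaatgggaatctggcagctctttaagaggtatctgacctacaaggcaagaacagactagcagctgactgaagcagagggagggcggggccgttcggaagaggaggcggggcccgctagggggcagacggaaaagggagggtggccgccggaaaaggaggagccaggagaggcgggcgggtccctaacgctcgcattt
Ctss: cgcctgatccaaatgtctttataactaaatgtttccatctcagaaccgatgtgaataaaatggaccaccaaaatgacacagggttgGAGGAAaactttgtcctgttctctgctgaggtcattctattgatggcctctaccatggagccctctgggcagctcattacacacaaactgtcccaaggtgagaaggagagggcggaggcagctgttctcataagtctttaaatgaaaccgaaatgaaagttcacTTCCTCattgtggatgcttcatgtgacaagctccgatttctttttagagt
Ctsd: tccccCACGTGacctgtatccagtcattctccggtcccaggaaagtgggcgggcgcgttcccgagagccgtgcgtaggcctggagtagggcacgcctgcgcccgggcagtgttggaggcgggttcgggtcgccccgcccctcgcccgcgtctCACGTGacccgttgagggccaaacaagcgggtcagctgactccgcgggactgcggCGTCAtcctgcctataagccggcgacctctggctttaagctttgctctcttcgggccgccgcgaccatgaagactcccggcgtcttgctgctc

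No match to any of the 5 motifs stood in the Cst7 window, which says only that these letters are not in these 300 bases. Cst3 had 1 GAGGAA at position -230 from the start and Ctss had 2, at -164 on the plus strand and at 1 on the minus strand. Ctsd had 2 CACGTG, at -245 and -98, and 1 TGACG on the minus strand at -43. Windows were found for 8 of the 10 genes (9 windows, Lgmn having 2), and Ctsb and Ctsh are named only. Of the other windows, Ctsc had 2 GAGGAA, Ctsl and 1 of the Lgmn windows had 1 CACGTG each, and Ctsz and the second Lgmn window had no match. Among all 32851 windows of the same length in the table, TGACGTCA stood in 1.79%, TGACG in 20.8%, CACGTG in 7.15%, GAGGAA in 28.3% and TTGCG in 17.4%. A match is a description of the letters and not a site shown to be bound.

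At 3 weeks off dox, 9 of the 10 genes rose in the VP16-CREB hippocampus and none fell. Each of the 9 rose at its brightest probe set. Cst7 went from near the bottom of the intensity scale to well above the array's median. The exopeptidases Ctsc, Ctsh and Ctsz and the endopeptidases Ctss and Ctsd rose 3.52- to 6.14-fold, Ctsl 2.20-fold, Lgmn 2.12-fold, and Ctsb 1.65- to 1.80-fold where called (folds of the intensity plus 10). Cst3 did not pass the test. Of the 18 probe sets, 13 (72.2%) were called higher at an adjusted p under 0.05 (limma, Benjamini-Hochberg over 27044 probe sets), where 3.28% of all probe sets were, and 0 were called lower, where 0.651% of all were. In 15 of the 18 the pools of both groups did not overlap, VP16-CREB being higher, against 14.9% of all probe sets. The median log2 difference was 1.48 over the 18 and -0.01 over all. Because the members were chosen with earlier results of these data known, such shares are descriptions here and below, and no test of the set.

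**Figure D1:**
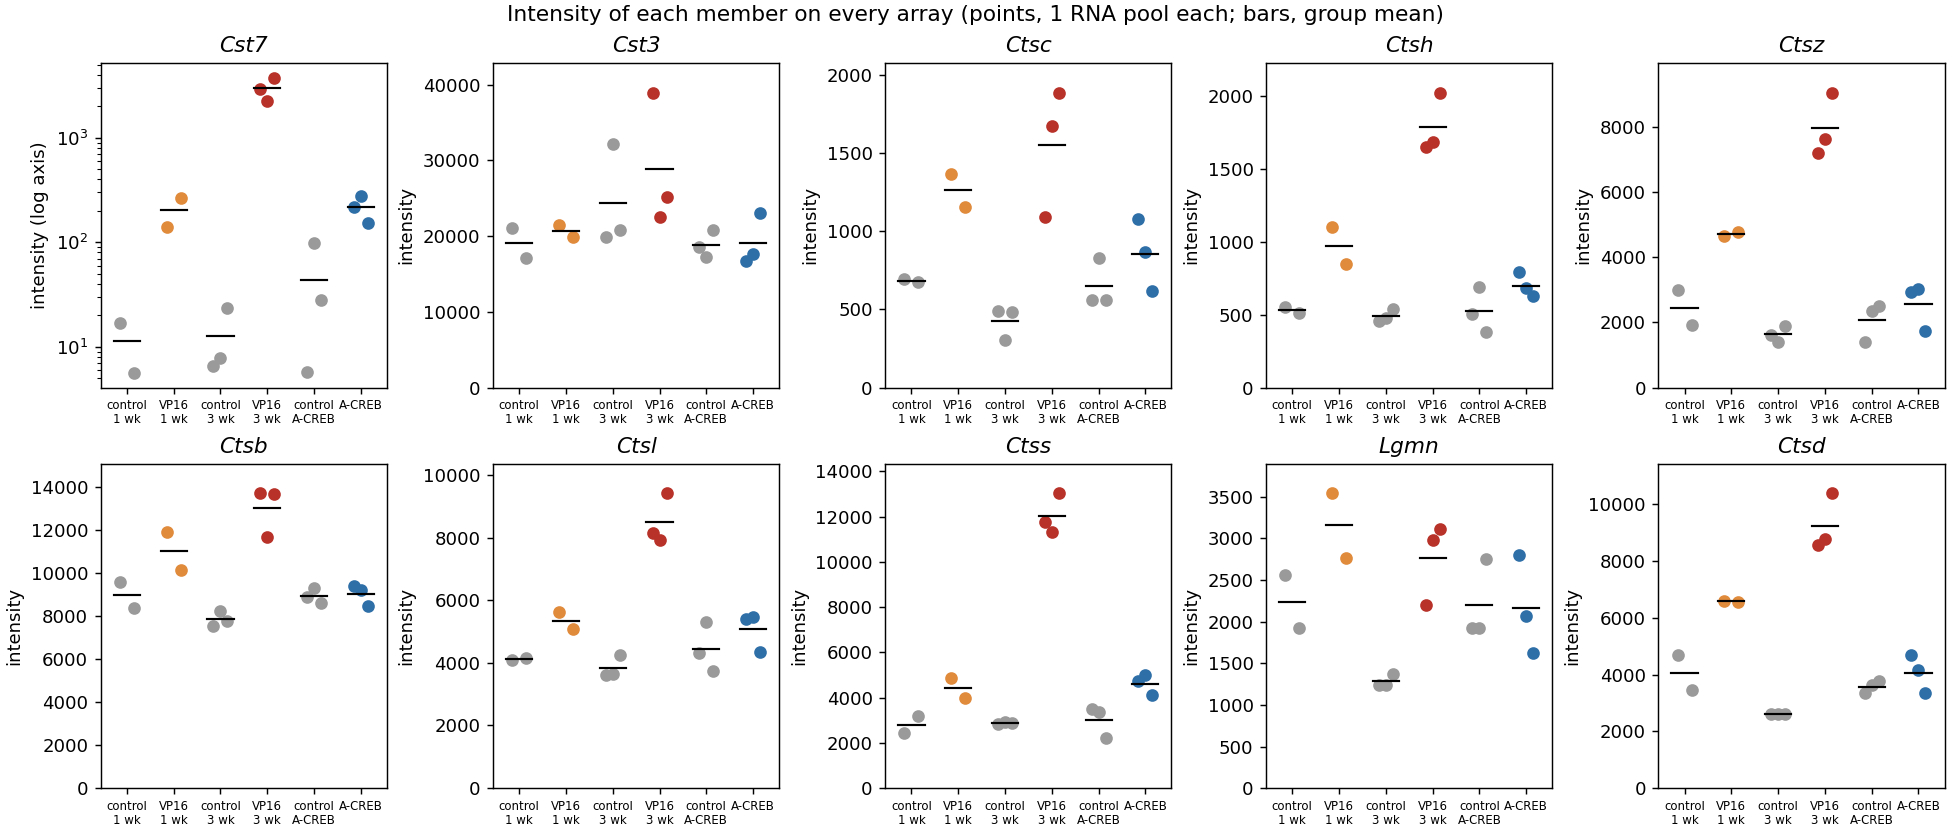
Intensity of the brightest probe set of each of the 10 genes on every array. Each point is 1 RNA pool and each bar a group mean, controls are grey, and the Cst7 axis is logarithmic. The 3 VP16-CREB pools at 3 weeks lie above their controls in every panel but that of Cst3, where the groups overlap.

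Cst7 (chromosome 2, 150570415 to 150578944) read 6.55, 7.89 and 23.4 in the control pools at 3 weeks and 2906, 2245 and 3738 in the VP16-CREB pools. Every VP16-CREB pool was far above every control, and the control values all lay under the 99.1 that is the median of all values, where MAS5 intensities are noisy. The group means were 2963 ± 748 (SD, n = 3) and 12.6 ± 9.34 (n = 3). The log2 difference of the intensity plus 10 was 7.08 (SE 0.55, adjusted p = 5.05e-06), a 136-fold rise on that scale. Its size depended on the constant added to low values, and was 8.09 on the log2 scale (272-fold) without one and 6.31 (79.3-fold) with 25. It ranked 1 of 27044 by size with each of these 3 settings. In all 6 groups its values passed 99.1 only in transgenic pools. It thus entered the 27044 through the groups where it was high, and the rank is a description. No detection calls were used here, so whether the control pools held any Cst7 transcript was not measured.

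The 2 nearest genes on the 3′ side of Cst7 did not pass the test, and the 2 nearest on its other side, Zfp345 and Zfp442, had no probe set that passed the filter. Apmap, which begins 3′ of it on chromosome 2 (150583080 to 150608567), had a log2 difference of 0.30 (adjusted p = 0.256), and Acss1, the next gene (150618111 to 150668240), had 0.18 (adjusted p = 0.728). Cst3 lies on the same chromosome, 1694902 bp away, among other cystatin genes.

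Cst3 (chromosome 2, 148871722 to 148875512) read 19918, 32230 and 20849 in the control pools and 38962, 22524 and 25116 in the VP16-CREB pools. The groups overlapped, and 1 pool on each side stood high. Means were 24333 ± 6856 (SD, n = 3) and 28867 ± 8838 (n = 3). The log2 difference was 0.24, with a 95% interval from -0.26 to 0.74 (adjusted p = 0.787), so a change of up to 0.74 on the log2 scale lies within what these pools allow.

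Among the exopeptidases, Ctsc encodes cathepsin C, which trims dipeptides from the ends of proteins and activates serine proteases of immune granules. It lies on chromosome 7 (88278024 to 88315861). It read 487, 303 and 486 in the controls and 1087, 1674 and 1885 in the VP16-CREB pools. The lowest VP16-CREB pool was still above the highest control. The log2 difference was 1.83 (SE 0.27, adjusted p = 0.00096).

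Ctsh (chromosome 9, 90054267 to 90076095) encodes cathepsin H, an aminopeptidase. Its brighter probe set read 453, 479 and 535 in the controls and 1644, 1679 and 2020 in the VP16-CREB pools, with no overlap. The log2 differences of its 2 probe sets were 1.84 (SE 0.20, adjusted p = 7.05e-05) and 1.85 (SE 0.22, adjusted p = 0.000188). The second carries the suffix that marks possible cross-hybridisation, and it moved as the first did.

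Ctsz (chromosome 2, 174427494 to 174439039) encodes cathepsin X, a carboxypeptidase. The brightest of its 3 probe sets read 1626, 1391 and 1893 in the controls and 7198, 7620 and 9061 in the VP16-CREB pools. The pools of each group kept close together and the groups lay far apart. The 3 probe sets rose by 2.28, 2.62 and 2.10 on the log2 scale (SE 0.26, 0.20 and 0.25), with adjusted p between 4.23e-06 and 0.000204. After Cst7 these were the largest rises among the 18 probe sets.

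Ctsb (chromosome 14, 63122462 to 63145923) encodes cathepsin B, which cuts both inside proteins and at their ends, and it gave the smallest rise. The brightest of its 5 probe sets read 7563, 8239 and 7789 in the controls and 13731, 11695 and 13690 in the VP16-CREB pools. These groups did not overlap. The probe set rose by 0.73 on the log2 scale (SE 0.13, adjusted p = 0.00435), and a second one by 0.85 (SE 0.17, adjusted p = 0.0125). The call of the second was lost without control replicate 1, control replicate 3 or VP16-CREB replicate 3 (adjusted p 0.0501 to 0.0785). The remaining 3 were not called, with log2 differences of 0.95 (adjusted p = 0.0521), 0.32 (0.372) and 0.37 (0.798). The last of these was dim, at 49.0 to 122 in this cohort, and passed the filter only through 2 of the VP16-CREB pools. The probe set at 0.95 was called under 7 of the 16 alternative settings.

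Among the endopeptidases, Ctsl (chromosome 13, 64361890 to 64370772) encodes cathepsin L. Its bright probe set read 3625, 3658 and 4258 in the controls and 8145, 7915 and 9416 in the VP16-CREB pools. No pool crossed between the groups. The rise was 1.14 on the log2 scale (SE 0.16, adjusted p = 0.000653). A dim second probe set, at 45.2 to 113 in this cohort, had a log2 difference of -0.13 (adjusted p = 0.935).

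Ctss (chromosome 3, 95526786 to 95556405) encodes cathepsin S, which stays active outside the acid lysosome and trims the invariant chain in antigen presentation. It read 2856, 2925 and 2875 in the controls and 11745, 11314 and 13040 in the VP16-CREB pools. The controls varied very little (SD 35.8 around 2885) and the VP16-CREB pools not much more (SD 899 around 12033). The rise was 2.05 on the log2 scale (SE 0.18, adjusted p = 1.39e-05).

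Lgmn (chromosome 12, 102394082 to 102439728) encodes legumain, an asparaginyl endopeptidase that processes other cathepsins. It read 1236, 1241 and 1372 in the controls and 2196, 2984 and 3114 in the VP16-CREB pools. The groups did not overlap, and the rise was 1.09 on the log2 scale (SE 0.22, adjusted p = 0.0132). This call was lost without control replicate 1 or 2 or VP16-CREB replicate 2 or 3 (adjusted p 0.0532 to 0.0775).

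Ctsd (chromosome 7, 142375910 to 142387827) encodes cathepsin D, an aspartic protease that cystatins do not block. It read 2596, 2610 and 2623 in the controls and 8570, 8774 and 10386 in the VP16-CREB pools. The 3 controls were nearly identical, and each VP16-CREB pool was over 3 times as bright. The rise was 1.82 on the log2 scale (SE 0.16, adjusted p = 1.27e-05).

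**Figure D2:**
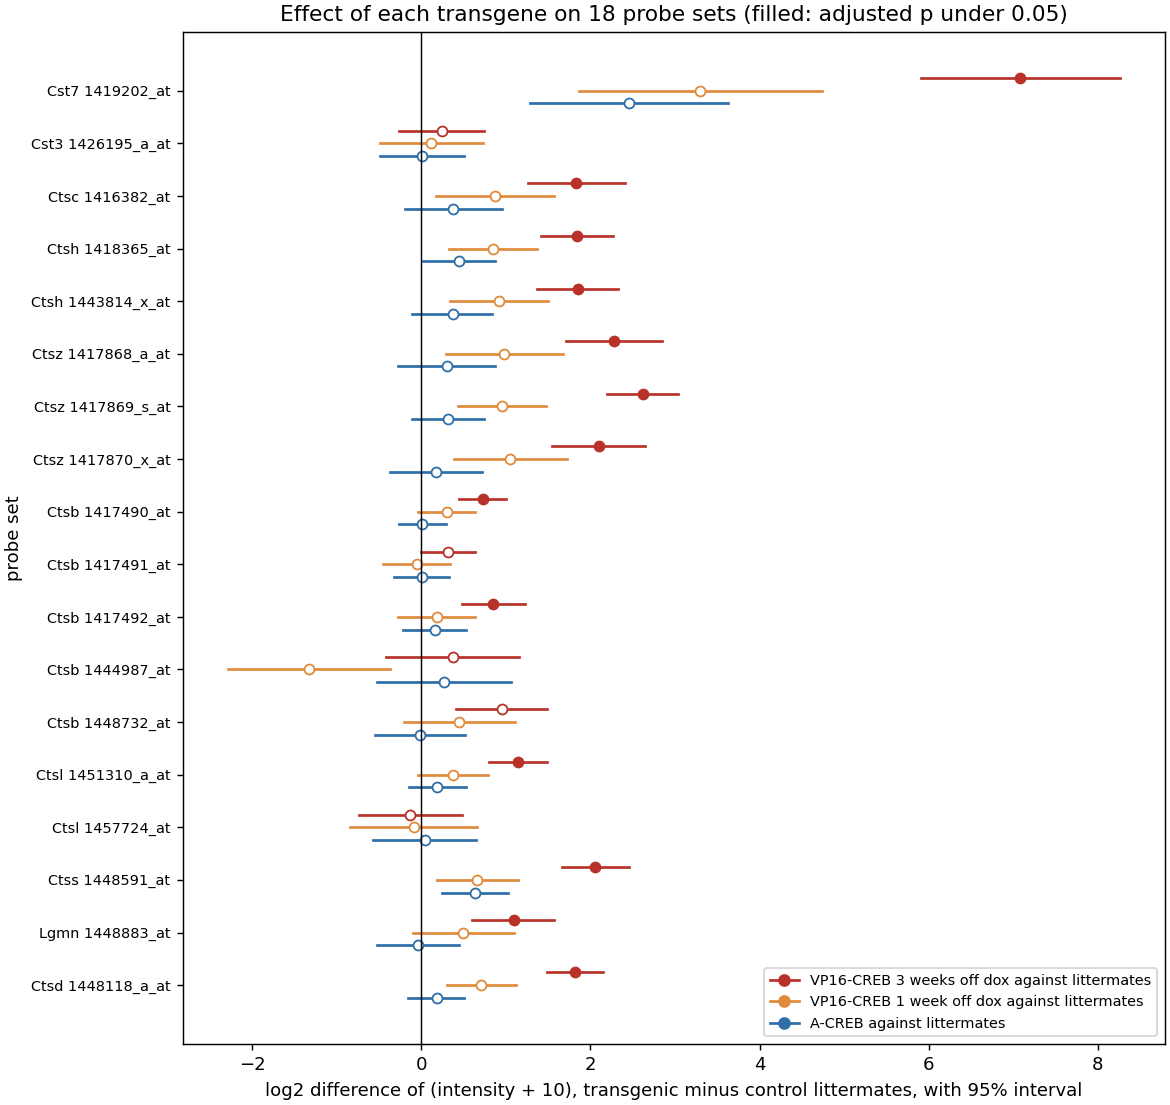
Log2 difference of the intensity plus 10 for each of the 18 probe sets, transgenic minus littermate pools, with its 95% interval. Filled points were called at an adjusted p under 0.05. Of the 3 comparisons only VP16-CREB at 3 weeks has filled points, 13 in number, and Cst7 stands apart at 7.08.

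The rise of the proteases was set beside the markers of microglia, the brain's resident macrophages, in which lysosomal cathepsins are abundant. At 3 weeks 13 of 14 measured microglia markers rose, with a median log2 difference of 1.37. Trem2 rose by 2.84, Tyrobp by 2.68 and C1qa by 2.50 on the log2 scale. The summed intensity of the 14 was 39412 to 47340 in the VP16-CREB pools and 11683 to 12028 in the controls, a 3.54-fold difference. The sum gives bright markers the most weight, and the mean of C1qa alone went from 2034 to 11564. On the log2 scale the sum rose by 1.82, against the median of 1.37, so ratios to the sum depend on that choice. Ctsc, Ctsh and Ctsd were near the fold of the sum, at 1.01, 1.01 (1.02 for the second Ctsh probe set) and 0.996 times it. Ctss was at 1.17 times and Ctsz at 1.21 to 1.74 times the fold of the sum, whereas Lgmn was at 0.601, Ctsl at 0.623, the called Ctsb probe sets at 0.468 and 0.510, and Cst3 at 0.334 times. Cst7 was at 38.4 times, a ratio that runs from 22.4 with 25 added to 77.0 with nothing added, since its control values are so low. In bulk tissue more cells of a type and more RNA per cell cannot be told apart, and the part of microglia numbers in these rises was not tested. The microglia markers differed among themselves, from 0.42 for P2ry12 to the 2.84 of Trem2. P2ry12 read 891 to 1079 in controls and 954 to 1696 in VP16-CREB pools, and was the only 1 of the 14 not called.

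Some markers of other cells also moved. Of 10 astrocyte markers 2 rose at their brightest probe set, Gfap by 2.76 and Aqp4 by 1.13 on the log2 scale, and 4 at any probe set. The median of the 10 was 0.56, and the summed intensity of the list was 78229 to 98434 against 61667 to 72870 in controls. Aqp4 lost its call without VP16-CREB replicate 3 (adjusted p = 0.0594). Of 5 markers of monocytes, perivascular macrophages and neutrophils 1 rose, Mpo by 1.64, with sums of 680 to 766 against 398 to 417. Ccr2 stayed under the filter (19.0 to 63.3 in VP16-CREB pools) and S100a8 read 29.8 to 43.2. Of 12 lymphocyte and natural killer markers on the array 2 passed the filter and none was called, with sums of 263 to 384 against 225 to 242. Dentate granule neuron markers fell in 7 of 8 cases, with a median log2 difference of -1.58, and 0 of 10 general neuron markers were called. None of 8 choroid plexus markers was called. Their median log2 difference was -0.63, with sums of 7219 to 27197 against 15473 to 37674 in controls, ranges that overlap. The part of these shifts in the cathepsin and cystatin values was not tested.

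The rest of the lysosomal system rose in part. Of 6 other cathepsins measured 1 rose, Ctsa by 0.99 on the log2 scale (adjusted p = 0.00648), and the median of the 6 was 0.29. The cystatins measured beside Cst7 and Cst3 were 2, of which Cstb, the cytosolic cystatin B, rose by 0.60 (adjusted p = 0.0282), a call that was lost when any 1 of the cohort's arrays except VP16-CREB replicate 1 was left out (adjusted p 0.0532 to 0.164) or arrays were centred on their median (0.115). Ctla2b, a gene related to the cathepsin propeptide, rose by 1.49, 1 of 6 other inhibitors measured. Only 1 of the 10 serine proteases that cathepsin C activates passed the filter, Prtn3, with a log2 difference of 0.37 (adjusted p = 0.829).

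Among lysosomal hydrolases and their activators 10 of 35 rose and none fell, with a median log2 difference of 0.32. The thiol reductase Ifi30 rose by 2.30, the beta-glucuronidase Gusb by 1.94 and progranulin, Grn, by 1.71 on the log2 scale. Of 28 genes of the lysosomal membrane and its proton pump 4 rose, led by Cd68 at 2.73, Laptm5 at 1.96 and Slc11a1 at 1.84, and 5 rose at any probe set, with a median of 0.16. None of 12 genes that sort enzymes to the lysosome was called (median 0.02). In MHC class II presentation, in which cathepsin S works, 5 of 7 rose, with H2-Ab1 at 4.87, Cd74 at 3.67 and H2-Aa at 3.55. Of 8 transcription factors of lysosomal and myeloid genes 3 rose: Irf8 by 2.54, Spi1, which encodes PU.1, by 1.16 and Cebpa by 1.15. Spi1 was lost without control replicate 1 or 2 or any VP16-CREB pool (adjusted p 0.0711 to 0.109). Over all probe sets 3.28% were called higher, and the median was -0.01.

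**Figure D3:**
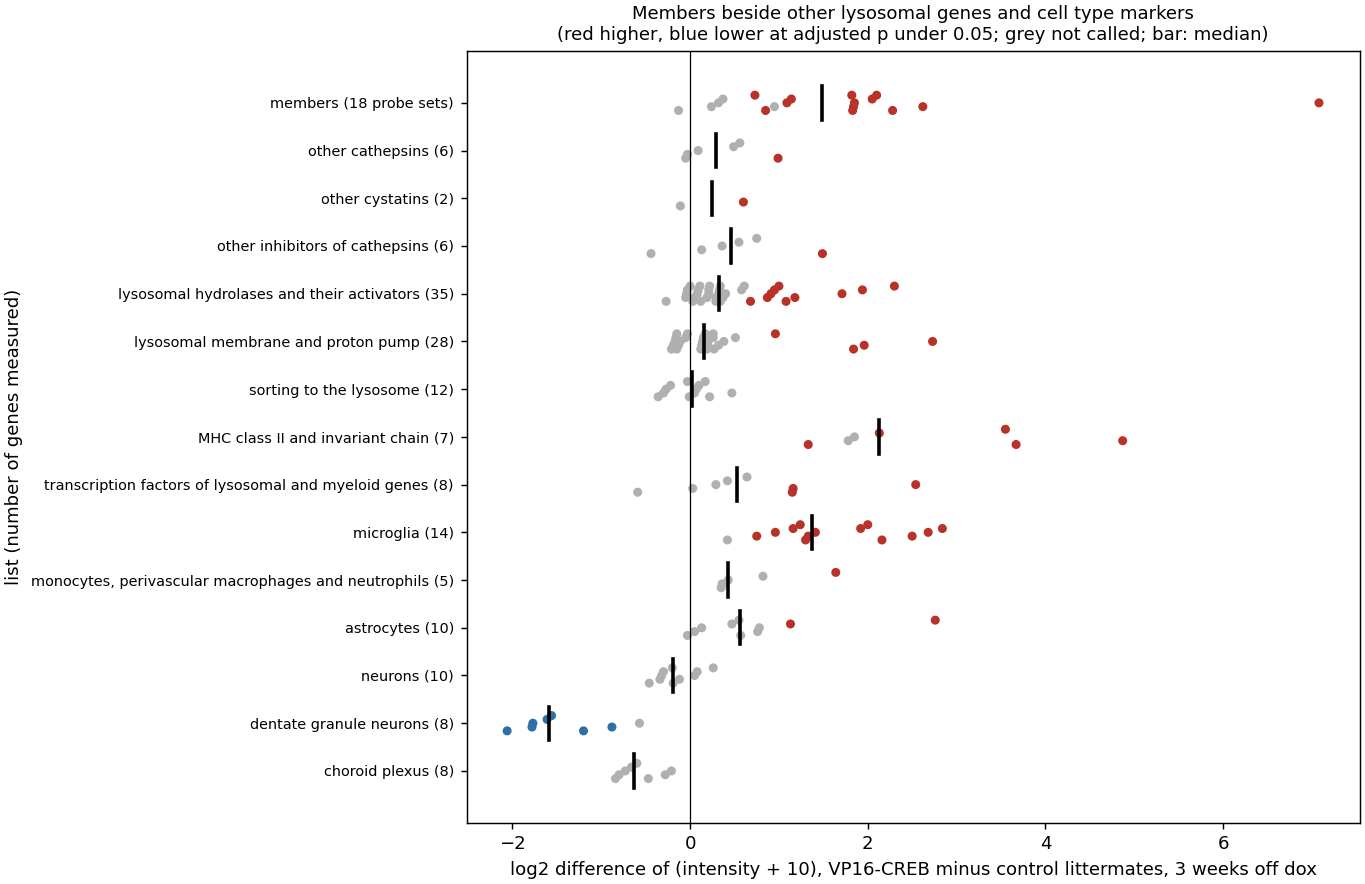
Log2 difference of the intensity plus 10 at 3 weeks off dox for the 18 probe sets and for gene lists, with 1 point per list gene at its brightest probe set. Lists not drawn are those of serine proteases activated by cathepsin C, lymphocytes and natural killer cells, oligodendrocytes, endothelium and pericytes, and blood. Red points were called higher and blue lower at an adjusted p under 0.05, and bars are medians. The cathepsin and cystatin set (median 1.48), the microglia markers (1.37) and the MHC class II genes (2.13) lie to the right, and the sorting genes (0.02) at 0.

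At 1 week off dox none of the 18 probe sets was called, where 0.237% of all probe sets were (64). At an unadjusted p under 0.05, 9 of the 18 were higher, against 3.67% of all probe sets. The pools did not overlap in 14 of the 18 with VP16-CREB higher, against 15.7% of all, and the median log2 difference was 0.58 against 0.02. With 2 pools a group, 31 of 100 simulated 2-fold changes and 77 of 100 simulated 4-fold changes were called in this comparison. The adjusted threshold depends on how many probe sets change, so these rates need not hold in the data.

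Cst7 read 17.1 and 5.65 in the control pools at 1 week and 139 and 265 in the VP16-CREB pools. Both VP16-CREB pools were above both controls. The log2 difference was 3.30 (SE 0.67, adjusted p = 0.0734). It passed the threshold under 2 of the 14 alternative settings, with 25 added to the intensities (2.60, adjusted p = 0.0461) and with an intensity trend and robust variances (adjusted p = 0.0402).

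The proteases that had risen at 3 weeks were higher in both VP16-CREB pools than in both controls at 1 week, with smaller differences that did not pass the test. Ctsz read 2989 and 1909 in the controls and 4670 and 4791 in the VP16-CREB pools, a log2 difference of 0.98 (adjusted p = 0.541). Ctsd read 4683 and 3455 in the controls and 6602 and 6565 in the VP16-CREB pools, a log2 difference of 0.71 (adjusted p = 0.271). In both genes the VP16-CREB pools agreed closely while the controls spread.

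Ctsc read 693 and 672 in the controls and 1363 and 1157 in the VP16-CREB pools, a log2 difference of 0.87 (adjusted p = 0.687). Ctsh read 555 and 509 against 1097 and 845, with a difference of 0.85 (adjusted p = 0.334). Ctss read 2443 and 3174 against 4891 and 3983, with a difference of 0.66 (adjusted p = 0.568). In each of these genes the pools of the groups were apart. Ctsl (0.37) and Lgmn (0.49), with the called Ctsb probe sets (0.30 and 0.18), had smaller differences, and Cst3 had 0.12, with a 95% interval from -0.49 to 0.73. Of the 3 Ctsb probe sets not called at 3 weeks, the brighter ones were at 0.45 and -0.05, and the dim Ctsl probe set at -0.09. The lowest value was that of the dim Ctsb probe set, which read 35.7 and 46.5 in the controls and 8.39 and 12.2 in the VP16-CREB pools, a log2 difference of -1.33 (adjusted p = 0.568). These intensities lie well below the median of all values.

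Each of the 13 probe sets that rose at 3 weeks had a log2 difference above 0 at 1 week. The median difference was 1.84 at 3 weeks and 0.85 at 1 week. The difference at 1 week was a median share of 43.1% of that at 3 weeks. Age and time off dox changed together between these cohorts and cannot be told apart. The 886 probe sets that rose at 3 weeks had medians of 1.26 and 0.52, and a median share of 40.6%, and 92.7% of them were above 0 at 1 week, so the share was near that of all risen probe sets. Microglia markers at 1 week had a median log2 difference of 0.84, 0 of 14 were called, and their sums were 21456 to 24811 against 11823 to 16701. Their part in the values at 1 week was not tested. In the wider lists, H2-Ab1 (3.48), Gusb (1.31) and Cd68 (1.84) rose at 1 week on the log2 scale, as did Gfap (1.80) and Mpo (1.82). The calls of Gusb, Cd68 and Gfap rested on single arrays (adjusted p up to 0.224). Gusb was lost without any 1 of the 4, and Cd68 and Gfap without control replicate 2 or either VP16-CREB pool. With only these 4 arrays fitted, 0 probe sets were called at 1 week, so H2-Ab1 and Mpo also lost their calls.

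**Figure D4:**
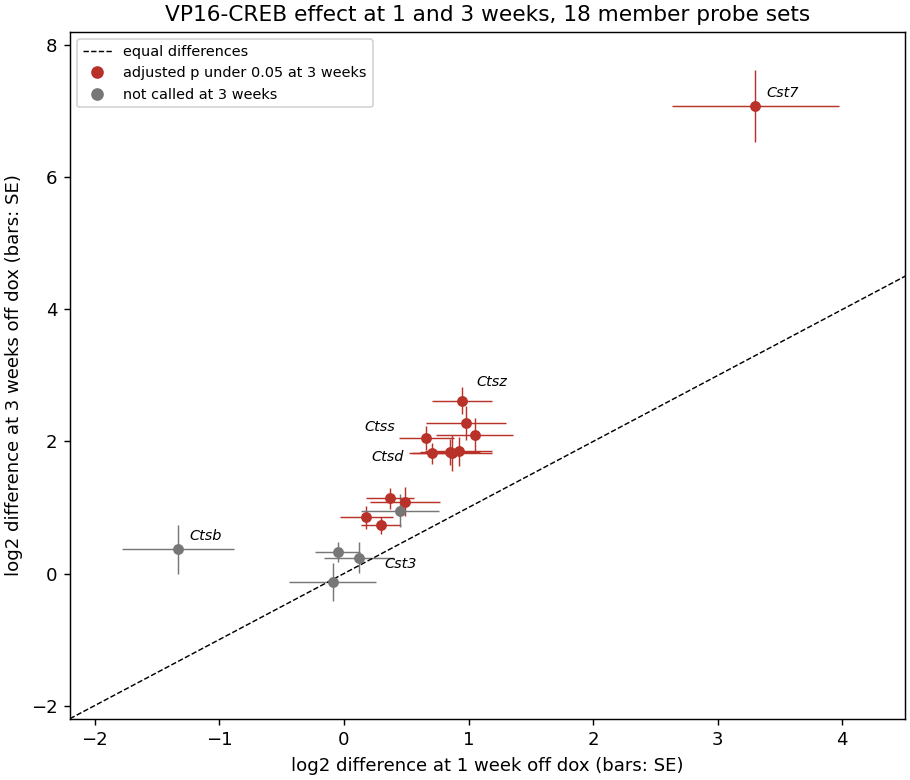
Log2 difference of the intensity plus 10 of the 18 probe sets at 1 week (horizontal) and 3 weeks (vertical) off dox, each with its SE and each against its own littermates. Points above the dashed line differed more at 3 weeks. Cst7 lies at 3.30 and 7.08, and the 13 probe sets called at 3 weeks, in red, all lie above the line.

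Whether the VP16-CREB effect was larger at 3 weeks than at 1 week was tested as a contrast. These cohorts differed in the age of the mice and in array median as well as in time off dox, and these cannot be told apart. None of the 18 probe sets was called in it, where 0.0037% of all were (1 probe set, which has no gene symbol and a log2 contrast of -2.05). At an unadjusted p under 0.05, 12 of the 18 were larger at 3 weeks, against 3.08% of all probe sets. The contrast was 3.79 on the log2 scale for Cst7 (SE 0.86, adjusted p = 0.264), 1.67 for the Ctsz probe set with the largest rise (adjusted p = 0.187), 1.39 for Ctss (adjusted p = 0.197) and 1.11 for Ctsd (adjusted p = 0.248). For Cst3 it was 0.12, with a 95% interval from -0.66 to 0.91.

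In the A-CREB hippocampus, where CREB is blocked, none of the 18 probe sets was called, and neither was any other (0 of 27044 in limma, percent called 0). At an unadjusted p under 0.05, 1171 of all probe sets (4.33%) differed in either direction and 2.29% were higher, and 3 of the 18 were higher. Cst7 read 5.79, 97.5 and 28.3 in the control pools and 216, 278 and 153 in the A-CREB pools. All 3 A-CREB pools were above all controls, although the controls spanned a wide range of low values. The log2 difference was 2.45 (SE 0.55, adjusted p = 0.554), and it was 1.76 (adjusted p = 0.688) without both pools of low Xist.

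Ctss was the other member whose A-CREB pools lay above all controls, so that 2 of 18 did not overlap, against 3.54% of all probe sets. It read 3488, 3388 and 2210 in the controls and 4719, 5014 and 4134 in the A-CREB pools. The log2 difference was 0.63 (SE 0.18, adjusted p = 0.862). The brighter Ctsh probe set, which read 504, 688 and 381 in the controls and 789, 679 and 628 in the A-CREB pools, overlapped and had a difference of 0.44. The remaining probe sets had log2 differences between -0.04 and 0.38, and that of Cst3 was 0.01, with a 95% interval from -0.49 to 0.50. The median over the 18 was 0.19 and over all probe sets 0. Microglia markers had a median of 0.22, with sums of 14143 to 18690 against 12334 to 15293, and their part in these values was not tested.

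The effect of VP16-CREB at 3 weeks exceeded that of A-CREB for 8 of the 18 probe sets, from 5 genes, where 0.828% of all probe sets were called in that direction. The contrast was 4.63 on the log2 scale for Cst7 (SE 0.77, adjusted p = 0.0108), 2.30 for the Ctsz probe set with the largest rise (SE 0.28, adjusted p = 0.00182) and 1.64 for Ctsd (SE 0.22, adjusted p = 0.00297). The other 2 Ctsz probe sets had contrasts of 1.98 and 1.92, Ctss of 1.42, and the Ctsh probe sets of 1.40 and 1.48. Those 5 calls depended on single arrays, whereas the calls of Cst7, that Ctsz probe set and Ctsd held when each of the 12 arrays was left out in turn. That of Cst7 was lost without a pseudocount (5.03, adjusted p = 0.0879), and the count of 8 was 3 with no filter on low values. The count of 8 fell to 3 without VP16-CREB control replicate 1 or VP16-CREB replicate 3, to 4 without VP16-CREB control replicate 3, VP16-CREB replicate 2 or A-CREB control replicate 2, and to 5 without VP16-CREB control replicate 2, A-CREB replicate 3 or both pools of low Xist. Ctsc (1.45, adjusted p = 0.12), Lgmn (1.13, adjusted p = 0.169) and Ctsl (0.95, adjusted p = 0.0806) did not pass the test. Cst3 had a contrast of 0.23, with a 95% interval from -0.47 to 0.94. The cohorts differed in dox history, in the background written in the genotype and in array median as well as in transgene. Only the A-CREB cohort held pools of low Xist. These differences cannot be told apart.

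Across the 6 groups, whose cohorts differ in the overall median, the mean of Cst7 was lowest in the controls at 1 week (11.4) and at 3 weeks (12.6), then in the A-CREB controls (43.9), and these ranges overlapped. VP16-CREB at 1 week (202 ± 89.5, SD, n = 2) and A-CREB (216 ± 62.6, n = 3) came next, with overlapping ranges. Levels of different cohorts are only listed side by side here and were not tested against each other. VP16-CREB at 3 weeks stood alone at 2963, its lowest pool being above the highest of any other group. Cst3 went from 18875 in the A-CREB controls to 28867 in VP16-CREB at 3 weeks, and each group in that order overlapped the next.

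Likeness to Cst7 was measured as Pearson's r over the 16 arrays, on log2 of the intensity plus 10 minus the mean of the cohort's own controls, among 23140 probe sets with 1 symbol. The 8 most alike were from 7 genes: B2m (0.989), Ccl6 (0.986 and 0.975), Trem2 (0.982), Fcgr2b, Adgre1 and Cd300c2 (0.976 each) and C1qb (0.975). B2m encodes the light chain of MHC class I, Ccl6 a chemokine, Fcgr2b an Fc receptor, Adgre1 the macrophage marker F4/80, and C1qb a chain of complement C1q. Of the proteases, Ctsh (0.96 and 0.92), Ctsz (0.92 to 0.96), Ctsd (0.95), Ctsl (0.95 at its bright probe set), Ctss (0.94) and Ctsc (0.93) came near these values, Ctsb ranged from 0.07 at its dim probe set to 0.90, and Lgmn had 0.81.

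Cst3 had an r of 0.32 with Cst7 over the same arrays. The probe sets most like Cst3 were those of Sod1 (0.929), Rpl41 (0.917), Apoe (0.908), Uqcrfs1 (0.907), Tpt1 (0.903), Rac1 (0.893), Rplp2 (0.890) and Itm2b (0.883). Their log2 differences at 3 weeks were between 0.01 and 0.30. All of these correlations share arrays and cohorts, and the largest deviations come from the 3 VP16-CREB pools at 3 weeks, so they are descriptions with no test.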

How the data were processed

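The measurement was the intensity of each of 45101 probe sets on 16 Mouse Genome 430 2.0 arrays. The deposited intensity values are on a linear scale and come from MAS5, according to the submitters' processing notes (no version stated). On each array the mean after leaving out 2% of values at each end was 500, so no further scaling was applied. MAS5 subtracts a mismatch signal, which makes low intensities noisy. For arrays, their number limits the precision.

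After removal of 64 control probe sets, those above the median of all values (99.1) on at least 2 arrays were kept (27044, 60.0%). log2 of the intensity plus 10 was fitted in R 4.3.3 with limma 3.58.1 (lmFit and eBayes, two-sided, all 16 arrays, 1 coefficient per group, residual df 10, prior df 3.44). P-values were adjusted over all 27044 by Benjamini-Hochberg, and probe sets were called at an adjusted p under 0.05. Contrasts of effects were tested in the same fit. Symbols came from the platform annotation (34945 probe sets with 1 symbol, 932 with several, 9160 with none), and positions and promoters from RefSeq (GRCm38.p6). List counts use each gene's brightest probe set. Named are every member probe set, up to 3 called genes of largest difference per list (or the brightest where none was called) and the 8 probe sets most like Cst7 and Cst3. P2ry12, Ccr2 and S100a8 were named after their values were seen. The members and lists were chosen with earlier results of these data known.

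On simulated data, the VP16-CREB comparison at 3 weeks called 83 of 100 probe sets changed 4-fold and 54 of 100 changed 2-fold. That at 1 week called 77 and 31, and A-CREB 86 and 40. In the data 1062 probe sets were called at 3 weeks and 0 for A-CREB. The adjusted threshold depends on how many probe sets change, so these rates need not hold in the data for any of the 3 comparisons. Alternatives were other pseudocounts, filters and normalizations, array weights, a trend with robust variances, a replicate block, only the arrays compared, and each array left out in turn.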

Additional observations from a re-analysis of the deposited data

Results flagged for a closer look

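The effect of VP16-CREB at 3 weeks differed from that of A-CREB, by the contrast of both effects in limma, at 8 probe sets of 5 genes. Cst7 had a log2 contrast of 4.63 (adjusted p = 0.0108), Ctsd of 1.64 (adjusted p = 0.00297), and Ctsz of 2.30 (adjusted p = 0.00182), 1.98 (adjusted p = 0.0231) and 1.92 (adjusted p = 0.0215). Ctss had a contrast of 1.42 (adjusted p = 0.0187) and Ctsh of 1.40 (adjusted p = 0.0327) and 1.48 (adjusted p = 0.0436). In all 8 the 3 VP16-CREB pools were above their 3 controls.

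The calls of Ctsd and of the Ctsz probe set at 2.30 held without any 1 of the 12 arrays, and that of Cst7 did too, although it was lost without a pseudocount (5.03, adjusted p = 0.0879). The Ctsh probe set at 1.40 was called without A-CREB replicate 1 or A-CREB control replicate 3 but lost without each of the other 10 arrays (adjusted p 0.0566 to 0.113). The Ctsh probe set at 1.48 was lost without 9 of the 12 (adjusted p 0.0633 to 0.145), namely each VP16-CREB control, VP16-CREB replicates 2 and 3, A-CREB control replicates 1 and 2 and A-CREB replicates 2 and 3. The Ctsz probe set at 1.98 was lost without VP16-CREB control replicate 1 or 2, VP16-CREB replicate 2 or 3 or A-CREB control replicate 2 or 3 (adjusted p 0.0575 to 0.0845). The Ctsz probe set at 1.92 was lost without VP16-CREB control replicate 1 or 3, VP16-CREB replicate 2 or 3 or A-CREB control replicate 3 (adjusted p 0.0513 to 0.0776). Ctss was lost without VP16-CREB control replicate 1 or 3, VP16-CREB replicate 3, A-CREB control replicate 2 or A-CREB replicate 3 (adjusted p 0.0521 to 0.0724), and without both pools of low Xist (adjusted p = 0.0744), which also ended both Ctsh calls (0.0711 and 0.078).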

How the results depend on the processing

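The 1610 values of member probe sets under alternative settings included 1536 that stayed on their side of the threshold. Another 60 lost a call, 14 gained one and 0 called values reversed. Among the 1536, 49 uncalled values changed sign. At 3 weeks 11 of the 13 called probe sets kept their call in all 16 settings. Over the arrays left out in turn, the called count was 584 to 854 for all probe sets and 11 to 13 for the members at 3 weeks, 16 to 45 and 0 to 0 at 1 week, 0 to 4 and 0 to 0 for A-CREB, 0 to 5 and 0 to 0 for 3 weeks minus 1 week, and 114 to 218 and 3 to 8 for 3 weeks minus A-CREB. The 3 week count of 1062 was lowest without VP16-CREB replicate 3 (584), and 675 without control replicate 1 or VP16-CREB replicate 2 and 706 without control replicate 3, and the 1 week count of 64 was lowest without VP16-CREB replicate 1 (16). With array weights the counts over all probe sets were 4137 at 3 weeks, 31 at 1 week, 3 for 3 weeks minus 1 week and 404 for 3 weeks minus A-CREB. With no filter they were 32 at 1 week, 0 for 3 weeks minus 1 week and 138 for 3 weeks minus A-CREB (3 members). That setting had more probe sets both in the fit and in the adjustment. Fitting only the arrays compared gave 0 at 1 week and 9 for 3 weeks minus 1 week. Without a pseudocount A-CREB had 3 calls and 3 weeks minus 1 week 2, and with a pseudocount of 25 these were 2 and 0. Median centring and a filter on the mean each gave 0 for 3 weeks minus 1 week, and quantile normalization gave 21, 1 of them a member. A pseudocount of 25, or a trend with robust variances, gave 1 member called at 1 week. Without both pools of low Xist, chosen after seeing the data, A-CREB had 2 calls and 3 weeks minus A-CREB 5 members. Replicate numbers were shared between groups, but same-numbered pools did not all deviate together in the cohorts with 3 pools a group. Their r was -0.16, -0.23 and 0.22 at 3 weeks and -0.05, 0.41 and 0.27 in the A-CREB cohort. At 1 week both same-numbered pairs had an r of 0.15. With 2 pools a group the deviations from the group mean mirror each other, so these are 1 value and not 2. In the A-CREB cohort both pools numbered 1 had low Xist. The labels do not say what a number marks, and whether it pairs pools was not settled. The replicate block gave 23 calls at 1 week, 0 for 3 weeks minus 1 week and 144 for 3 weeks minus A-CREB, with 3 members, and 1 more Ctsb probe set at 3 weeks (adjusted p = 0.0277). Causes of the shifts between settings were not tested. Low intensities limit Cst7 in controls and the dim Ctsb and Ctsl probe sets.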
